A study of Ambystoma californiense with 99 samples.

Results

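The hsp90aa1.1 response of heated leg muscle divided 22 heated tiger salamanders into 15 with a strong response and 7 with a weak one. The animals were chosen from the 99 samples of the study by the level of that gene (feature AMEXTC_0340000124769) in their muscle RNA-seq library. A library counted as strong at 5 or more counts per 1000000 counted reads (CPM) and as weak below 5, among heated CTS, BTS and F1 muscles with at least 1000000 counted reads. The highest weak muscle stood at 1.69 CPM and the lowest strong muscle at 9.69 CPM, so that none lay close to 5. Since hsp90aa1.1 chose the classes, its muscle levels are given as a description with no test, and it was left out of every muscle comparison.

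The study measured poly(A) RNA in whole brain and leg muscle after acute heating, which went on until an animal could no longer right itself within 30 seconds of being laid on its back. The strong class held 3 CTS (California tiger salamander, Ambystoma californiense, the native species), 3 BTS (barred tiger salamander, taken here to be the introduced species) and 9 of their F1 hybrids. It had 8 females and 7 males. The weak class held 2 CTS, 3 BTS and 2 F1, with 6 females and 1 male. Of its CTS animals, number 76 is tagged CTS but titled BTS. The unheated controls were 5 CTS, 5 BTS and 13 F1 muscles, from 17 females and 6 males. Ages were not in the labels. Each muscle library came from its own animal, and the brains of the same heated animals gave 13 strong and 6 weak libraries. There were 22 control brains, mostly of the same control animals. BTS animal 69 gave a control brain only, and F1 animal 23 and BTS animal 80 a control muscle only. An association of class with genotype (Fisher's exact test, two-sided, p = 0.416) or with sex (p = 0.193) did not pass the test, with few weak animals in each cell.

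HSP90 is an abundant chaperone of the cytosol that keeps many kinases and receptors folded. Vertebrates have a constitutive form, HSP90AB1, and a stress-inducible form, HSP90AA1, to which hsp90aa1.1 belongs. When heat unfolds proteins, heat shock factor HSF1 is released from chaperones and switches on the genes of inducible HSP90, HSP70, their J-domain partners such as DNAJB1, and small heat shock proteins. Immediate early genes such as FOS, JUN and ATF3 are another rapid programme, switched on within minutes by many kinds of stress without new protein synthesis.

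In muscle hsp90aa1.1 lay between 9.69 and 152 CPM in strong animals with a median of 49.0. Weak animals had 0.178, 0.389, 0.401, 0.844, 1.05, 1.24 and 1.69 CPM. Controls lay between 0 and 0.802 CPM with a median of 0.326, apart from CTS control animal 66 at 21.5 CPM (92 reads). Each genotype had animals of both classes. Strong CTS ran from 17.9 to 152 CPM, strong BTS from 18.3 to 132 and strong F1 from 9.69 to 119 CPM. Strong animals thus differed widely among themselves, and 4 of the 7 weak animals stood above every control but animal 66.

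Counted reads ran from 1232774 to 17410995 in strong muscles, from 11250526 to 20068304 in weak ones and from 3412457 to 14673571 in controls. The strong and weak classes did not differ in library total beyond their spread (exact permutation test of the mean log10 total, two-sided, p = 0.498, n = 15 and 7). The tissue label fitted its markers: 26 skeletal muscle markers summed to 148723 to 235301 CPM in strong, 170069 to 194080 CPM in weak and 143493 to 220809 CPM in control muscles. Summed markers of muscle stem cells, neurons, Schwann cells, epidermis, connective tissue, erythrocytes, immune cells, endothelium and adipocytes overlapped between the classes. Immune cell markers had a positive strong minus weak fold change for 7 of 8 tested (median log2 0.55) and erythrocyte markers for 4 of 4 (median log2 0.91), with 0 called in either list. In whole tissue, a change in the cells that make up a sample and a change in the RNA per cell cannot be told apart. Of the controls, animal 66 had the highest neuron sum (851 CPM) and animal 63 the highest epidermis sum (1011 CPM).

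The brain was the measure that the choice of classes had not used, and there hsp90aa1.1 separated the same animals. Brains of strong animals had 141 to 996 CPM with a median of 333, brains of weak animals had 54.5, 65.5, 71.8, 79.0, 107 and 125 CPM, and control brains had 43.3 to 71.0 CPM with a median of 57.1. These controls leave out the brain of F1 animal 64, tagged control at 624 CPM, since its muscle is tagged heated. The brains of strong and weak animals did not overlap, over all animals or within any of the 3 genotypes. By edgeR's quasi-likelihood test the log2 fold change of strong against weak brains was 2.62 (SE 0.47, adjusted p = 0.0387). The mean difference of log2(CPM + 1) was 2.18 (SE 0.32), and an exact permutation test gave p = 7.37e-05, two-sided, the smallest that 13 against 6 animals allow. It stood between 2.06 and 2.31 without any 1 animal. In females alone, brains of 7 strong animals had 168 to 996 CPM, against 54.5 to 125 CPM in brains of 5 weak animals. Among males, brains of 6 strong animals had 141 to 789 CPM and the brain of the 1 weak animal had 65.5 CPM.

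**Figure D1:**
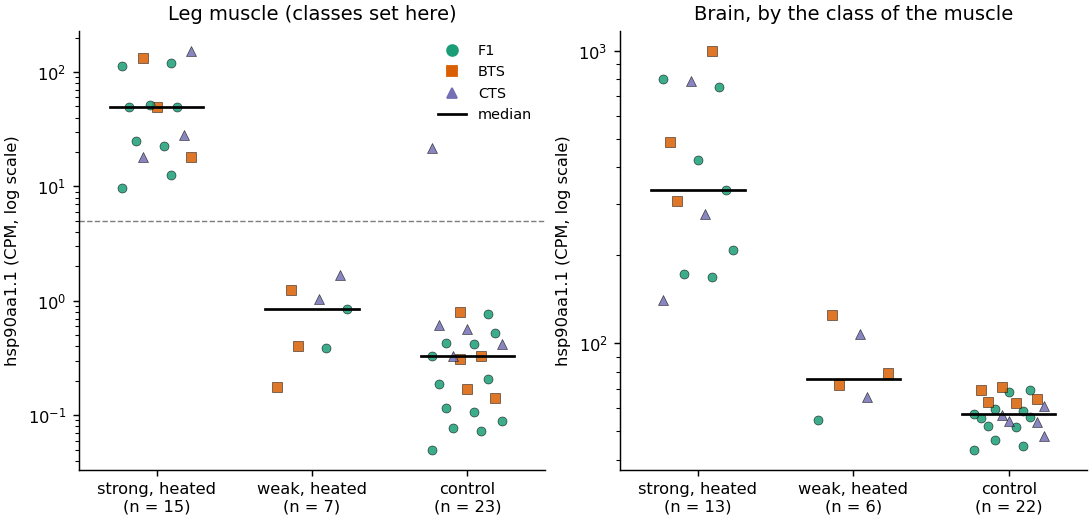
Level of hsp90aa1.1 in CPM on a log scale, in leg muscle (left) and in brain (right), for strong heated, weak heated and control animals. Heated brains are classed by the muscle of the same animal, and the control-tagged brain of F1 animal 64 is left out. Points are libraries with shape and colour by genotype, bars are medians, the dashed line is the class threshold of 5 CPM, and the control muscle without a read is drawn at 0.05. Muscle classes were set by these values; in brain the strong animals begin at 141 CPM and the weak ones end at 125 CPM.

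Within the strong animals the levels of both tissues are given side by side, with no test, since the muscle level chose the animals. The muscle highest in hsp90aa1.1 among them, CTS animal 7 at 152 CPM, had 789 CPM in brain, and the lowest, F1 animal 44 at 9.69 CPM, had 168 CPM. Over the 13 strong animals with both tissues, Pearson's r of the log2 levels was 0.77 and Spearman's rho was 0.75. Without the 2 animals farthest from the median muscle level, r was 0.69 (n = 11). This was the only such relation computed, and it was added after the data were seen. The 2 libraries of an animal share its heating run, which the labels do not describe further.

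**Figure D2:**
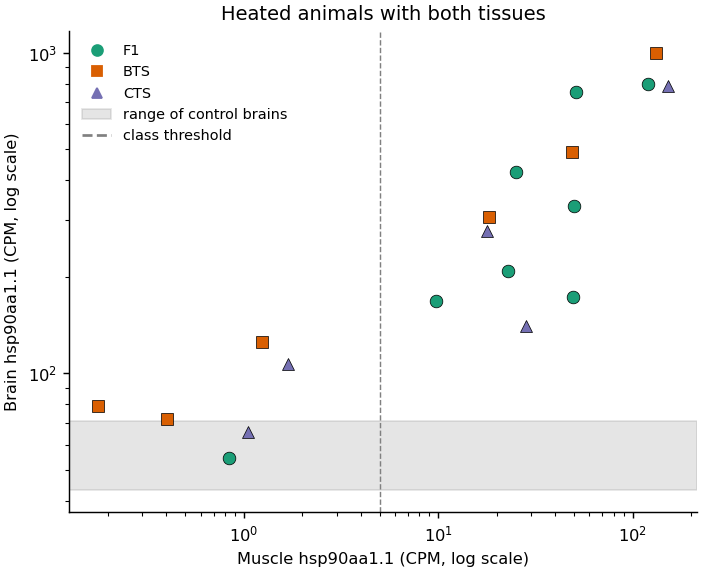
hsp90aa1.1 in brain (vertical, CPM, log scale) against muscle (horizontal, CPM, log scale) for the 19 heated animals with both libraries. The dashed line is the class threshold of 5 CPM in muscle. The grey band is the range of control brains, 43.3 to 71.0 CPM, without the control-tagged brain of F1 animal 64. All 13 strong animals lie above the band, and 2 of the 6 weak animals lie inside it.

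In muscle, the features called higher in strong animals included DNAJB1, 3 features named "heat" and 7 immediate early and stress-response regulators such as fos.L and JUN, and no feature was called lower. Of 11389 features tested, 25 were higher in strong than in weak muscles (0.22%) and 0 lower (0%), by edgeR's quasi-likelihood test with genotype as a covariate and an adjusted p under 0.05. The classes were cut on a chaperone gene of the same libraries, so these calls name the genes that go with it. Among the 25, FOSB, LOC103612238, "nucleotide-binding", "ligand" and the scarcer DNAJB1 and "heat" features had under 1 CPM in every weak muscle. They passed the filter on low counts through the strong muscles alone, so their calls add no support. An unadjusted p under 0.05 was reached by 275 features, against 569.45 expected by chance alone. The strong muscles stood wholly above the weak ones for 9 of the 25, and for 9 of all 11389 features (0.079%).

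DNAJB1 (AMEXTC_0340000121396), the J-domain partner that brings clients to HSP70, had 31.6 to 221 CPM in strong muscles with a median of 89.7. In weak muscles it had 6.73, 7.77, 9.82, 11.4, 11.4, 13.1 and 15.5 CPM, and in controls 4.24 to 24.8 CPM with a median of 8.91. Every strong muscle lay above every weak one, and the weak muscles lay inside the range of the controls. The log2 fold change of strong against weak was 3.19 (SE 0.43, adjusted p = 0.000288). A second DNAJB1 feature (AMEXTC_0340000062968) was near the limit of detection, with 171 reads over the strong and 4 over the weak muscles (log2 fold change 4.18, adjusted p = 0.00802). No weak muscle had more than 0.156 CPM of it, so it entered the test through the strong muscles alone.

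Of 4 tested features whose deposited name is cut to "heat", 3 rose, and which heat-named protein each encodes is not known from the table. The most abundant of the 3 (AMEXTC_0340000125485) had 126 to 2089 CPM in strong muscles with a median of 723. It had 8.87, 9.51, 13.8, 68.3, 69.3, 76.6 and 106 CPM in weak muscles and 1.09 to 177 CPM in controls with a median of 4.25. Strong and weak did not overlap (log2 fold change 4.53, SE 0.70, adjusted p = 0.00138). Another (AMEXTC_0340000248058) had 115 to 685 CPM with a median of 301 in strong muscles and 34.5 to 87.6 CPM with a median of 69.2 in weak ones. It too did not overlap between strong and weak (2.55, SE 0.32, adjusted p = 0.000179), while its weak level lay at that of the controls, whose median was 60.6 CPM. The third (AMEXTC_0340000055673) was scarce, at 0 to 13.4 CPM in strong and 0 to 0.240 CPM in weak muscles (5.39, SE 0.81, adjusted p = 0.00115). The fourth, AMEXTC_0340000164499, had a log2 fold change of 0.12 with median levels of 1372 CPM in strong and 1218 CPM in weak muscles.

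Another 2 of the called features have identifiers that lie close to that of hsp90aa1.1. LOC103612238 (AMEXTC_0340000124767) had 2.71 to 41.8 CPM in strong muscles and 0 to 0.496 CPM in weak ones, without overlap, and the largest fold change of the 25 (log2 6.13, SE 0.73, adjusted p = 0.000179). The feature named only "nucleotide-binding" (AMEXTC_0340000124757) had 0.535 to 10.5 CPM in strong and 0 to 0.404 CPM in weak muscles (4.82, SE 0.70, adjusted p = 0.000805). Whether reads of hsp90aa1.1 were split among the 3 features was not tested, so these values are uncertain and may not be independent of the gene that set the classes.

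The remaining heat shock genes that could be told by name did not pass the test. Of 17 tested features in the list of cytosolic HSP90, HSP70, HSP40 and HSP110 genes, the 2 of DNAJB1 were called higher and 0 lower. The scarce one of these 2 entered the test through the strong muscles alone, so its call adds no support. Over the list the median log2 fold change was 0.02, the same as over all features. The HSP70 and HSP110 members of the list were HSPA2_2, hspa13.L, hspa12b.L, hspa14.S and HSPA4. None carries the name of a heat-inducible HSP70, which was therefore not tested by name. Whether a "heat" feature encodes it is not known. HSP90AB1, the constitutive HSP90, had median levels of 2816 CPM in strong and 2937 CPM in weak muscles. Of 4 small heat shock proteins 0 passed. Among them hspb6, a small heat shock protein abundant in muscle, had 706 to 2726 CPM in strong and 801 to 2894 CPM in weak muscles (log2 fold change -0.01, SE 0.35). Of 19 HSP90 and HSP70 co-chaperones and heat shock factors 0 passed, HSF1 included, and neither did any of 11 mitochondrial chaperones or of 22 endoplasmic reticulum folding genes.

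**Figure D3:**
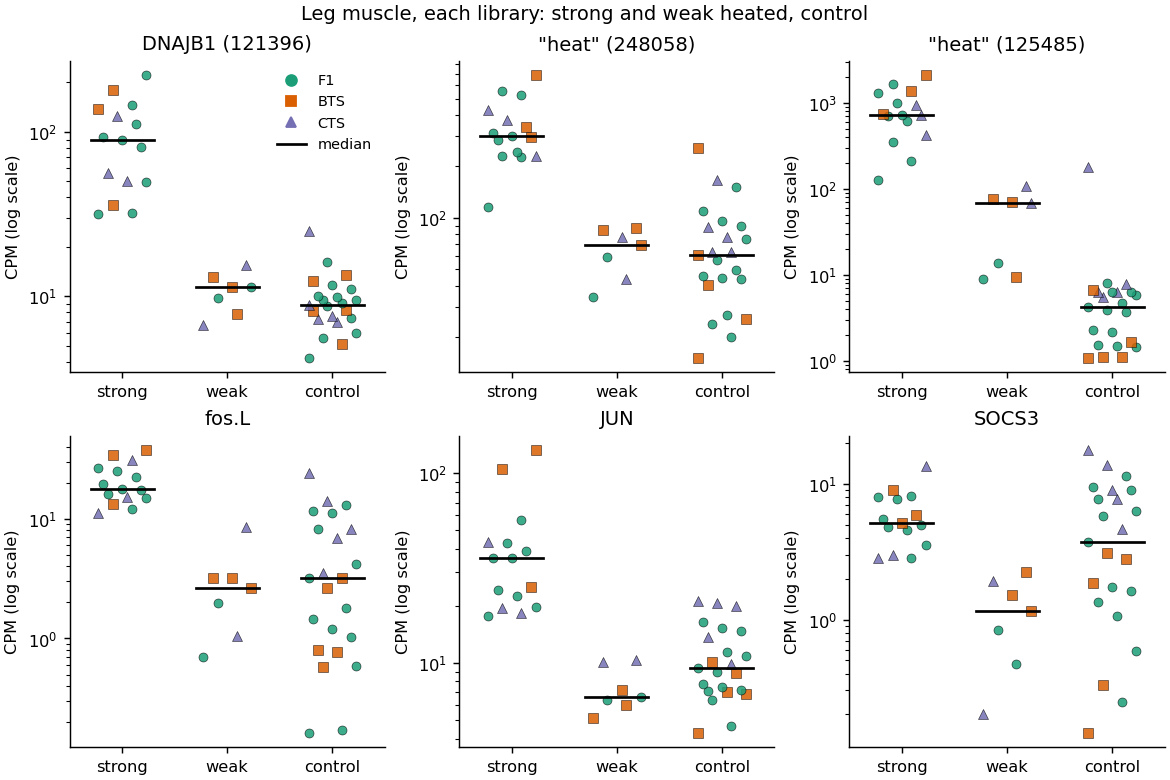
Muscle levels in CPM on log scales of 3 chaperone or heat-named features (top row) and of fos.L, JUN and SOCS3 (bottom row), for strong heated, weak heated and control libraries. Points are libraries with shape and colour by genotype and bars are medians; in all 6 panels the strong libraries lie above the weak ones, and SOCS3 of the strong muscles lies within the control range of 0.146 to 17.8 CPM.

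Immediate early genes and feedback regulators made up the other large group. Of 26 tested immediate early and stress-response regulators, 7 rose and 0 fell, and 24 had a positive fold change (median log2 0.78, against 0.02 over all features, of which 53.4% were positive). The share called higher over all 11389 features was 0.22%. FOSB, 1 of the 7, entered the test through the strong muscles alone, so its call adds no support. The 24 include scarce members such as FOSL1 and ier3, with class means of at most 1.14 and 1.02 CPM. fos.L, a subunit of the AP-1 transcription factor, had 11.1 to 37.3 CPM with a median of 17.7 in strong muscles. Weak muscles had 0.700 to 8.55 CPM with a median of 2.64, and controls 0.163 to 24.1 CPM with a median of 3.21. Strong and weak muscles did not overlap for fos.L (2.97, SE 0.40, adjusted p = 0.000288). JUN, its partner in AP-1, had 17.7 to 132 CPM in strong and 5.16 to 10.4 CPM in weak muscles, again without overlap (2.44, SE 0.41, adjusted p = 0.00313). FOSB was scarce, at 0.236 to 12.9 CPM in strong and 0 to 0.404 CPM in weak muscles, and the classes overlapped. Its log2 fold change of 4.12 (SE 0.82, adjusted p = 0.0250) rests on 13 reads over the weak muscles. ATF3, a stress-induced transcription factor, was higher by 2.95 (adjusted p = 0.00122). The MAP kinase phosphatases DUSP1 and DUSP5 were higher by 1.99 and 1.84 (adjusted p = 0.00312 and 0.0475), and the transcription factor Klf4 by 1.43 (adjusted p = 0.0166). GADD45B, a growth arrest and stress gene, did not pass at 1.39 (adjusted p = 0.0903).

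Of 13 inflammation and complement genes 2 rose, against 0.22% of all 11389 features. The 11 immune cell markers summed to 23.0 to 128 CPM with a median of 70.5 in strong and to 8.47 to 150 CPM with a median of 59.7 in weak muscles, and the part of these cells in the result was not tested. SOCS3, a feedback inhibitor of cytokine signalling, had 2.86 to 13.6 CPM with a median of 5.15 in strong muscles, 0.199 to 2.24 CPM with a median of 1.16 in weak ones and 0.146 to 17.8 CPM with a median of 3.72 in controls. The strong and weak muscles did not overlap (2.43, SE 0.38, adjusted p = 0.00138), and both lay within the range of the controls. NFKBIA, the inhibitor of NF-kappa-B, was higher by 1.80 (adjusted p = 0.0270). The other called features were RHOB, a small GTPase (0.91, adjusted p = 0.0445), PPP1R10, a nuclear regulator of protein phosphatase 1 (1.15, adjusted p = 0.0166), CUNH10orf10 (1.97, adjusted p = 0.0109), LOC108697799 (2.26, adjusted p = 0.000179), LOC106701779 (1.47, adjusted p = 0.00313), LOC102358173 (2.75, adjusted p = 0.0166), and 3 with truncated names. These were "early" (2.40, adjusted p = 0.00313), "cysteine-rich" (2.10, adjusted p = 0.000288) and "ligand" (adjusted p = 0.0270). No weak muscle had more than 0.623 CPM of "ligand", which entered the test through the strong muscles alone, so its call adds no support. RHOB missed the threshold in 18, DUSP5 in 16, "ligand" in 11, NFKBIA in 9 and FOSB in 6 of the 22 fits that left out 1 animal. Klf4, PPP1R10 and LOC102358173 missed it in 4 each. ATF3, SOCS3, DUSP1, JUN, fos.L, DNAJB1 (AMEXTC_0340000121396) and the 2 abundant "heat" features kept it in all 22.

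No other fixed group of genes passed. None of 12 p53 and growth arrest genes, 14 glucocorticoid-linked genes, 18 antioxidant genes, 39 ubiquitin and proteasome genes, 26 oxidative phosphorylation genes, 22 glycolysis and hypoxia genes or 45 contractile and calcium-handling genes was called. Of 59 cytosolic ribosomal protein genes, 8 had a positive fold change and the median was -0.21, with 0 called. The lower genes with the smallest p and at least 5 CPM in a class did not pass either, such as LOC102947274 (-1.10, adjusted p = 0.657) and PPP1R3C, a glycogen-targeting subunit of protein phosphatase 1 (-0.57, with medians of 58.9 CPM in strong and 106 CPM in weak muscles).

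The direction held in every genotype, while the calls needed the genotypes together. All 25 called genes had a higher mean log2 level in strong than in weak animals in CTS, in BTS and in F1. Strong and weak animals did not overlap for 22 of the 25 in CTS (3 against 2), 24 in BTS (3 against 3) and 14 in F1 (9 against 2). The 25 were called on these same animals, so these counts describe them and do not test the direction again. With so few animals in a genotype, strong can lie wholly above weak by chance. Of the weak CTS animals, number 76 is titled BTS. The share over all features within a genotype was not computed. In fits to F1 alone 0 features passed, and to CTS and BTS together 4. A test of whether the class difference itself differed between F1 and the parents called 0 of 11389 features (0%), with 246 at an unadjusted p under 0.05 by edgeR, and DESeq2 called 5. In females all 25 were higher in strong animals (8 against 6, without overlap for 10), as they were in males, where CTS animal 13 was the only weak one (7 against 1). The split by sex uses the animals on which the 25 were called, so it too is a description, with no share over all features computed. With sex as a further covariate 18 of the 25 passed.

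Most of these genes were also higher in strong muscles than in unheated controls, and weak muscles had no called gene. Both comparisons share the 23 controls, and the 25 genes were chosen from these same strong and weak libraries. A choice for higher levels in strong than in weak muscles tends to raise the strong values and lower the weak ones. For the 25, the values against controls are therefore a description and no independent support. Of 12186 features, 47 were higher (0.386%) and 10 lower (0.0821%) in strong muscles than in controls, and 21 of the 25 genes were among the 47. In weak muscles 0 were higher (0%) and 0 lower (0%) by edgeR's quasi-likelihood test, with 559 at an unadjusted p under 0.05 where chance gives 609.3. DESeq2 called 3. DNAJB1 (AMEXTC_0340000121396) had a log2 fold change of 3.38 in strong muscles (SE 0.22, adjusted p = 1.99e-15) and 0.21 in weak ones (SE 0.29). JUN had 1.95 in strong (SE 0.23, adjusted p = 1.91e-07) and -0.52 in weak muscles (SE 0.32). FOSB had 3.65 in strong (SE 0.51, adjusted p = 8.41e-06) and -0.54 in weak muscles (SE 0.82). It was near the limit of detection elsewhere, with a median of 0.095 CPM in controls and at most 0.404 CPM in weak muscles. FOSB passed the filter on low counts through the strong muscles, so its call adds no support.

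For 4 of the 25 genes the strong muscles were not called against controls. SOCS3 had 0.33 in strong muscles (SE 0.37, adjusted p = 0.823) and -1.90 in weak ones (SE 0.58, unadjusted p = 0.00217, adjusted p = 0.866). The other 3 were "early", "ligand" and RHOB, at 0.89, 0.65 and 0.40 in strong and -1.43, -0.79 and -0.48 in weak muscles. Of 28 immediate early and stress-response regulators tested, 20 had a positive fold change in strong muscles against controls and 3 in weak ones, with median log2 fold changes of 0.27 in strong and -0.50 in weak muscles. Over all features the medians were 0.003 in strong and -0.02 in weak muscles.

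The abundant "heat" feature AMEXTC_0340000125485 was the exception among the weak muscles. Its 7 weak muscles, at 8.87 to 106 CPM, all lay above the highest of 22 controls, 7.96 CPM, and the remaining control was CTS animal 66 with 177 CPM. Against all 23 controls its log2 fold change in weak muscles was 2.66 (SE 0.56, adjusted p = 0.171). Without animal 66, left out after the data were seen, it was 3.55 (SE 0.46, adjusted p = 1.18e-05), the only feature called. In strong muscles it was 7.43 against all controls (SE 0.52, adjusted p = 1.44e-14). Animal 66 was the highest of the controls for 11 of the 25 called genes.

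**Figure D4:**
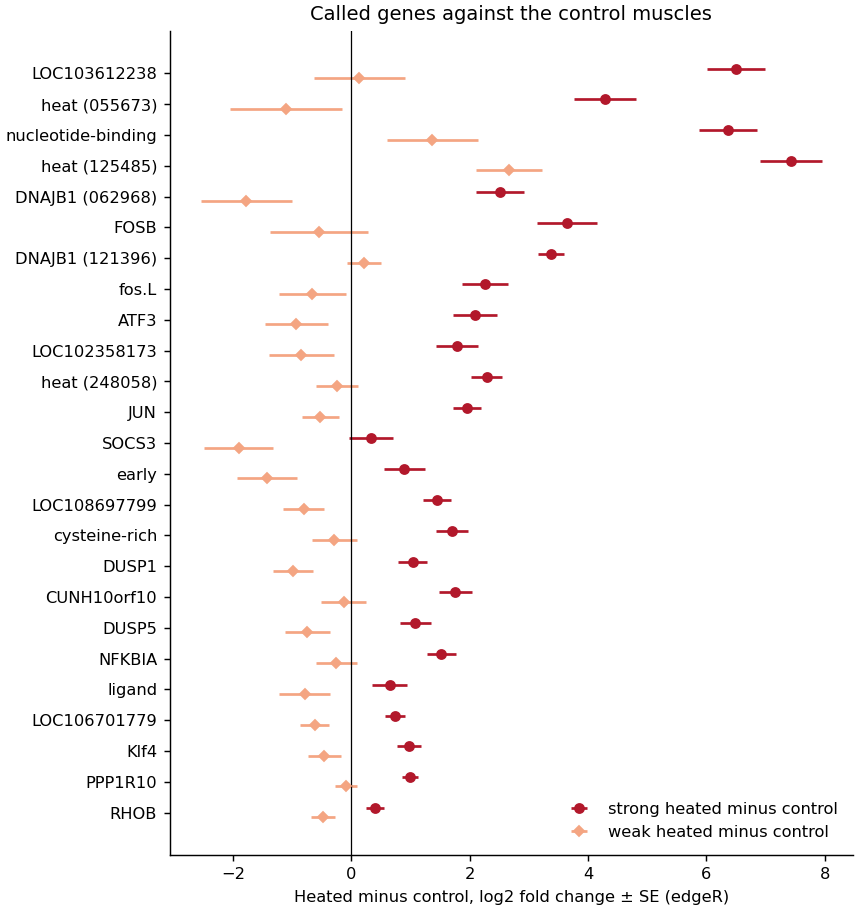
Log2 fold change (horizontal, with its SE from edgeR) of the 25 genes called between strong and weak muscles, in strong heated minus control (upper mark) and weak heated minus control (lower mark), which share the controls. All 25 strong values are positive and 4 of the weak values are, the largest of these 4 being the "heat" feature at 2.66. The 25 were chosen in these same heated libraries for standing higher in strong than in weak ones, so these signs are no independent support.

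In the brain, a tissue the classes did not use, 8 of 14422 features were higher in strong animals (0.0555%) and 0 lower (0%), by edgeR's quasi-likelihood test, each with an adjusted p of 0.0387. They were hsp90aa1.1 (above), LOC103612238 (log2 fold change 2.64), "heat" AMEXTC_0340000248058 (2.41), DNAJB1 AMEXTC_0340000121396 (2.19), FOSB (2.72), hspb6 (3.96), NR4A1, an orphan nuclear receptor of the immediate early group (1.95), and arc, an immediate early gene of active neurons (1.48). Strong and weak brains did not overlap for 7 of the 8, and for 9 of all 14422 features (0.0624%). DNAJB1 had 117 to 550 CPM with a median of 224 in brains of strong animals, 59.4 to 82.3 CPM with a median of 62.4 in those of weak animals and 47.6 to 91.8 CPM in controls. Of the 25 genes called in muscle, 24 were tested in brain, 23 had a positive fold change (55.2% of all features did) and 4 were called.

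The number of brain calls depended on single animals of both classes. Without each animal in turn between 0 and 10 features passed, with 0 in 9 of 19 such fits (without the strong BTS 38, BTS 90, F1 6 or F1 91, or the weak CTS 13, CTS 76, BTS 53, BTS 75 or F1 86), 1 without the strong CTS 7 and 3 without the weak BTS 20. The fold changes moved little: over all alternatives that of hsp90aa1.1 was between 2.34 and 2.79 and that of DNAJB1 between 1.90 and 2.32, with adjusted p up to 0.231 and 0.189. With sex as a further covariate 1 passed, LOC103612238. hsp90aa1.1 then had a log2 fold change of 2.79 (adjusted p = 0.0533). Markers of Schwann cells and oligodendrocytes summed to 1413 to 11570 CPM with a median of 3636 in strong, 3393 to 11659 CPM with a median of 7218 in weak and 1782 to 12919 CPM with a median of 7357 in control brains, and their part in these results was not tested.

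Weak animals still stood above controls in brain for 2 features, in a comparison added after the data were seen. Against 22 control brains 2 of 15326 features were higher in weak ones (0.013%) and 0 lower (0%) by edgeR's quasi-likelihood test. They were "heat" AMEXTC_0340000125485, at 131, 179, 218, 398, 455 and 874 CPM in weak brains against 4.60 to 105 CPM in control brains (log2 4.50, SE 0.49, adjusted p = 2.69e-07), and "nucleotide-binding" (1.99, SE 0.34, adjusted p = 0.00547). All 6 weak brains lay above all controls for the first of them. Whether "nucleotide-binding" shared reads with hsp90aa1.1 was not tested, and hsp90aa1.1 itself was not called. No alternative fits are given for this comparison. In strong brains 42 features were higher (0.274%) and 27 lower (0.176%) than in the same controls, and that "heat" feature had 581.96 to 9048 CPM (7.70, SE 0.44, adjusted p = 1.08e-16).

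**Figure D5:**
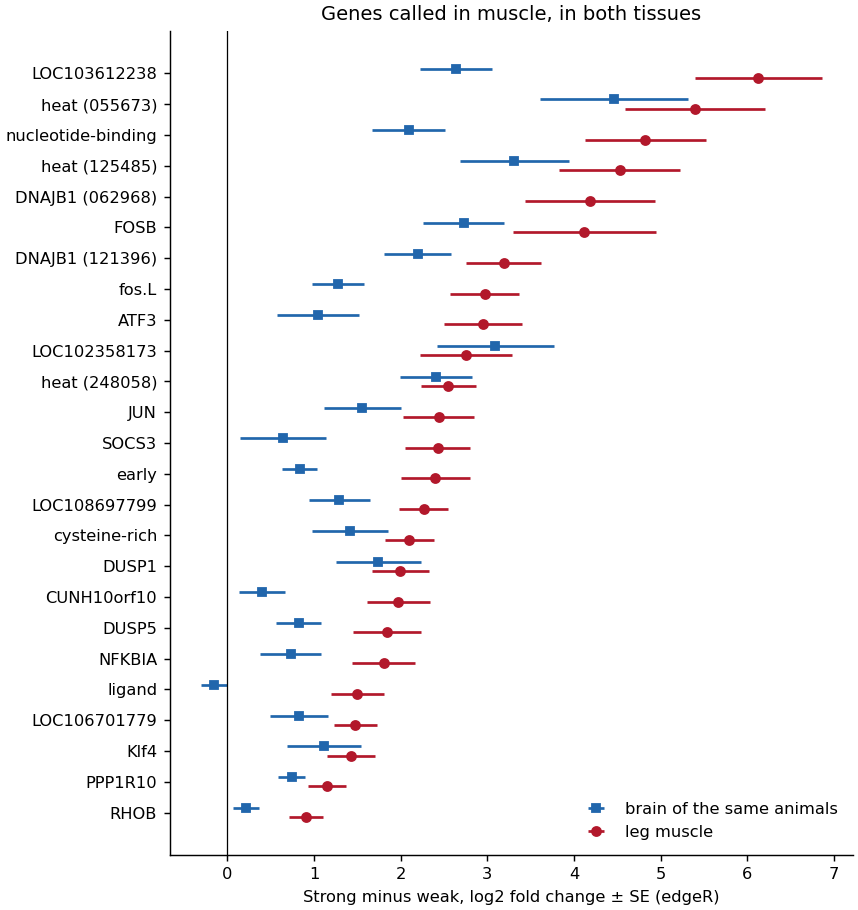
Log2 fold change of strong minus weak animals (horizontal, with its SE from edgeR) for the 25 genes called in muscle, in brain (squares, upper) and leg muscle (circles, lower). All 25 muscle values are positive; 23 of the 24 brain values are positive, and the scarce DNAJB1 feature was not tested in brain.

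The tissues differed for hspb6. In brain it had 93.0 to 1069 CPM with a median of 307 in strong animals, 14.4, 21.4, 23.2, 24.1, 34.6 and 57.3 CPM in weak ones and 10.04 to 33.7 CPM in controls, without overlap between strong and weak. In muscle strong and weak animals overlapped (above). The brain minus muscle difference in log2 fold change was 4.15 (SE 0.75, adjusted p = 0.0148 in edgeR's test of the interaction), and 3.75 (SE 0.64, adjusted p = 0.0438) with the animal as a block. Skeletal muscle markers summed to 800 to 3153 CPM with a median of 917 in brains of strong animals, highest in CTS animal 7. In brains of weak animals they summed to 856 to 1033 CPM with a median of 950, and in control brains the median was 952 CPM. Of 15 such markers tested in brain, 14 had a positive strong minus weak fold change (median log2 0.75), as had 21 of 25 contractile and calcium-handling genes (median log2 0.50), with 0 called in either list. Their part in the hspb6 result was not tested. Without animal 7 the brain fold change of hspb6 was 3.45 (adjusted p = 0.0829).

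Over 15397 features, 1 was higher (0.00649%) and 2 lower (0.013%) in brain than in muscle in their strong minus weak difference. The lower ones were "ligand" (-1.84, SE 0.33, adjusted p = 0.0148), called in muscle and at -0.16 in brain, and DPYSL4 (-2.89, SE 0.45, adjusted p = 0.00373). DPYSL4, a neuronal protein of growth cones, had 79.2 to 177 CPM in strong and 110 to 183 CPM in weak brains, and 0 to 2.96 CPM in strong and 0 to 0.242 CPM in weak muscles, where most weak libraries had no read. It was too low for the test within muscle and entered this one through its brain level, so that its difference rests on muscle libraries with few reads. Brain and muscle libraries of an animal are paired by its number in the titles. With the animal as a block 3 features passed again: hspb6, DPYSL4 (adjusted p = 0.0438) and LOC103612238 (-3.25, SE 0.44, adjusted p = 0.00303, against -3.40 and 0.603 without the block), while "ligand" did not (adjusted p = 0.304). LOC103612238 and "ligand" had 25 and 33 reads over all weak muscles, so their differences too rest on few weak muscle reads. Whether LOC103612238 shared reads with hsp90aa1.1 was not tested.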

How the data were processed

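Brain and muscle read counts per gene model, for 23251 features in 48 brain and 50 muscle columns, were used as the authors deposited them. The submitters' processing notes name Trimmomatic, FastQC, STAR and HTSeq; neither their versions nor the counting options or the build are given in the sources used here. Libraries were stranded poly(A) libraries read as single ends, per the labels' protocols. Near-identical copies (heat shock and HSP90 features, DNAJB1) may have shared or lost reads, and many names are truncated. Genotype, treatment and sex come from the tags. CTS animal 76 is titled BTS. Animal 64 is tagged heated in muscle, where it was used, and control in brain, where it was left out. F1 animal 11 (66186 muscle reads), the brain of F1 animal 16 (5418 reads), the brain of F1 animal 17 and backcrosses were not compared. No pair of libraries within a group agreed within sampling noise.

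Counts were tested with edgeR 4.0.16 in R 4.3.3 (TMM scaling, filterByExpr on the class, quasi-likelihood test, genotype as covariate), without hsp90aa1.1 in muscle. Adjusted p-values are Benjamini-Hochberg values over all tested features, two-sided, with a threshold of 0.05. A standard error is the fold change divided by the square root of its F statistic. Levels are CPM of the library total. Permutation tests used SciPy 1.17.1 on log2(CPM + 1). Each library is a separate animal within a tissue. The test script was checked on simulated data. Alternatives were DESeq2 1.42.0, other scaling, filters and covariates, hsp90aa1.1 as a continuous measure, each genotype set alone and each heated animal left out. Brain and muscle of an animal are paired by its number in the titles, and in 18 animals their deviations from the class means correlated at 0.146 on average, against -0.00763 between animals, over 0.1 in 11 and at -0.180 at the lowest.

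The animals, gene lists and tests were chosen with earlier results of these data known. Named genes were the called features, all chaperone list members that passed or were most abundant, the lower features with the smallest p and at least 5 CPM in a class, and the leading members of each list. Other features were named after their values were seen.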

Additional observations from a re-analysis of the deposited data

Results flagged for a closer look

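In groups of 4 to 10 samples, 2 of the 34 groups of values examined held a sample far from the others, where chance gives about 1 in 20. Among the weak muscles, CTS animal 13 was low for LOC106701779 at 4.34 CPM, and CTS animal 76 was high for LOC102358173 at 15.7 CPM. The strong minus weak difference was unlike in brain and muscle for 3 features by edgeR's quasi-likelihood test of the interaction: hspb6 at 4.15, "ligand" at -1.84 and DPYSL4 at -2.89 on the log2 scale (brain minus muscle). With the animal as a block "ligand" did not pass (adjusted p = 0.304), and DPYSL4 was too low in muscle to be tested there.

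In 8 libraries that entered no comparison, hsp90aa1.1 was above the level of the controls of the tissue, apart from CTS control muscle 66. That muscle had 21.5 CPM, more than the muscle of backcross animal 12 below. In muscle, the shallow library of heated F1 animal 11 had 423 CPM (28 reads), and the heated backcrosses to BTS had 10.6 CPM in animal 12 and 25.5 CPM in animal 30. In brain, heated F1 animal 11 had 1447 CPM, and the same backcrosses had 173 CPM in animal 12 and 383 CPM in animal 30. The brain of animal 64, tagged a control, had 624 CPM, and its muscle, tagged heated, had 113 CPM. The brain of the unheated backcross animal 26 had 91.6 CPM. The heated CTSbc backcross, animal 84, was not above the controls, with 36.4 CPM in brain, under every control brain, and 0.186 CPM in muscle (2 reads).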

How the results depend on the processing

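The 25 genes higher in strong than in weak muscle kept their direction in every fit in which they were tested. Their number was between 17 and 26 without each heated animal, 35 by DESeq2 (all 25 among them), 18 with sex as a covariate, 0 in F1 alone and 4 in CTS and BTS alone, where the fits held fewer animals. Weak against control muscle had 0 calls and 0 to 2 without each heated animal or CTS control 66 (2 without CTS 76, 1 without control 66). It had 3 by DESeq2, 7 without a filter on low counts, 2 with sex, 4 without a covariate and 1 without controls 63, 68, 25 and 66, the last chosen after the data were seen. Strong against control muscle had 57 calls, 37 to 63 without each animal (37 without F1 2), 94 by DESeq2, 46 with sex and 32 with a strict filter, which tests fewer genes. The brain comparison had 8 calls, 0 to 10 without each animal, 24 by DESeq2 and 1 with sex. Its hsp90aa1.1 difference stood at 2.06 to 2.31 without each animal (exact permutation p at most 0.000233). The brain minus muscle difference had 3 calls, 3 with the animal as a replicate block, of which 2 were the same, and 8 by DESeq2. The F1 minus parents difference had 0 calls and 5 by DESeq2. Where no construction is named, the cause was not tested.

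The weak class holds 7 muscles and 6 brains, of which F1 gave 2 and 1, so that these comparisons detect large differences only. Levels under about 1 CPM rest on few reads.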

Other observations

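Some genes were called between strong muscles and controls without being among the 25. They included SNAI2, a zinc-finger repressor (log2 fold change 1.08, adjusted p = 0.00100 in edgeR), SELE, an endothelial adhesion molecule (1.55, adjusted p = 0.00953), the extracellular protease ADAMTS4 (1.11, adjusted p = 0.0113), coq10b, a coenzyme Q binding protein (1.43, adjusted p = 0.0172), and KRT18, a keratin of simple epithelia (1.46, adjusted p = 0.0208). Strong muscles and controls overlapped for all of them, with 7 of 15 strong muscles above the highest control for SNAI2, 4 for SELE, ADAMTS4 and coq10b and 3 for KRT18. DGAT2, an enzyme of triglyceride synthesis, was called at 5.82 (SE 1.02, adjusted p = 0.000603) with 2 of 15 strong muscles above the highest control, the higher at 212 CPM, and medians of 0.360 CPM in strong muscles and 0.247 CPM in controls. Genes lower in strong muscles than in controls included FIG4, a phosphoinositide phosphatase (-0.56, adjusted p = 0.0208), and crat.1, a carnitine acetyltransferase (-0.91, adjusted p = 0.0389). Weak muscles against controls, where no gene was called, had -0.54 for FIG4, -0.07 for crat.1 and 3.96 for DGAT2. SNAI2 had 0.16, SELE -0.26, ADAMTS4 0.41, coq10b 0.57 and KRT18 0.57 there. FIG4 had medians of 2.79 CPM in strong, 2.56 CPM in weak and 4.14 CPM in control muscles, so its lower level was not particular to the strong class. All of these were named after their values were seen.

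NR4A1 and arc, called between strong and weak brains, had these levels across strong, weak and control brains. NR4A1 had 31.7 to 160 CPM with a median of 65.4 in strong brains, 12.0 to 36.9 CPM with a median of 26.4 in weak brains and 11.3 to 75.7 CPM with a median of 42.8 in control brains. For arc the medians were 193 CPM in strong, 82.2 CPM in weak and 113 CPM in control brains. The log2 fold change of weak brains against controls was -0.87 for NR4A1 (SE 0.32, unadjusted p = 0.00841) and -0.47 for arc (SE 0.23, unadjusted p = 0.0480), neither past the adjusted threshold in edgeR, and that of strong brains was 0.95 for NR4A1 (adjusted p = 0.0155) and 0.97 for arc (adjusted p = 0.000313).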
